A study of Homo sapiens with 6 samples.

Results

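Drug efflux pumps of the ATP-binding cassette (ABC) family were measured in HT29 cells, a human colon adenocarcinoma line, left untreated by drug or exposed to NS398, which selectively inhibits COX2, the inducible cyclooxygenase. The 9 genes ABCB1, ABCC1, ABCC2, ABCC3, ABCC4, ABCC5, ABCC6, ABCC10 and ABCG2 were listed by function, and this family was selected on the same NS398 and control values, in which ABCC2 stood out. Differences between NS398 and control arrays for these genes are therefore given as descriptions and not as tests. Of the 9 genes, 8 had at least 1 probe set (a group of oligonucleotides that reports 1 signal) that names the gene alone, and ABCC6 was not analysed here. These 8 genes have 20 probe sets, among 54675 on the array and 19775 genes with a probe set of their own.

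The labels name 3 NS398-treated and 3 control samples, hybridised singly to Affymetrix HG-U133 Plus 2.0 arrays. Per the methods of the study, treated cells received NS398 dissolved in dimethyl sulphoxide in serum-free medium, the controls received the solvent, and the replicates are called biological, while the labels give no dose, time, culture or batch. All samples come from 1 cell line, and in RNA of a whole culture a change in the number of cells that carry a transcript and a change in RNA per cell cannot be told apart. Directions follow the labels, and for several genes the study's own text and lists give the opposite direction, CEBPB among them. Whether the labels or the study's contrast are turned could not be settled, and if the labels are, every direction given here reverses.

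ABC transporters use the energy of ATP to move substrates across membranes. ABCB1 (P-glycoprotein, MDR1), ABCG2 (BCRP) and ABCC2 (MRP2) sit in the apical membrane of enterocytes and hepatocytes and return drugs and drug conjugates to the gut lumen or the bile. ABCC1 (MRP1) and ABCC3 (MRP3) are basolateral in polarised epithelia and move glutathione, glucuronide and sulphate conjugates towards the blood. ABCC4 (MRP4) and ABCC5 (MRP5) also export cyclic nucleotides, and ABCC4 exports prostaglandins.

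The arrays were alike in overall scale, with median signals of 65 to 80.2 and the same mean of 500 after trimming the top and bottom 2%. The mean of the array medians was 0.12 higher on the log2 scale in NS398 arrays. The 3' to 5' ratio of the ACTB control probe sets, a sign of RNA integrity, was 1.27 to 1.32 in control and 1.45 to 1.71 in NS398 arrays, and that of GAPDH was 0.969 to 1.08 and 1.04 to 1.21. The part of RNA integrity in the results below was not tested. Of 14 epithelial colon markers, 12 were above background on all 6 arrays, while the intestinal factor CDX1 was above it on 0 and CDX2 on 2. The summed epithelial signals were 145880 to 166048 in control and 187023 to 192616 in NS398 arrays. In the fit described below 4 of these genes were called higher (KRT20, LGALS4, CLDN7 and CEACAM5) and 1 lower (VIL1), beside 5.23% and 4.85% of all genes. Of markers of other cells, 2 of 8 leukocyte, 1 of 8 fibroblast, 1 of 6 endothelial and 2 of 6 hepatocyte genes were above background on all 6 arrays. The summed leukocyte signals were 26114 to 32903 in control and 29216 to 34236 in NS398 arrays, and mostly that of LYZ, which secretory epithelium also makes. The fibroblast sums were 673 to 975 and 890 to 1050, with COL1A1 above background on all arrays and PDGFRB and COL3A1 on 0. LUM was called higher (45.5 to 215) but was above background on only 3 of 6 arrays. Its control mean lay below the background limits given below, so no fold is read from it. The endothelial sums were 222 to 354 and 270 to 321. The hepatocyte sums, mostly that of SERPINA1, were 21619 to 29809 and 14578 to 16926, with TTR and SERPINA1 called lower (-1.91 and -0.71) and albumin above background on 0 arrays.

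The promoter of ABCC2, which was above background in NS398 arrays alone, is shown with that of ABCC4, a relative whose brightest probe set differed little, because the letters of these windows are unlike. The windows come from RefSeq (GRCh38.p14) and reach from 250 bases before to 50 after the annotated start, each written along the strand of its gene. Capitals mark the matches to the motifs listed below.
ABCC2, chr10:99782390-99782689, plus strand: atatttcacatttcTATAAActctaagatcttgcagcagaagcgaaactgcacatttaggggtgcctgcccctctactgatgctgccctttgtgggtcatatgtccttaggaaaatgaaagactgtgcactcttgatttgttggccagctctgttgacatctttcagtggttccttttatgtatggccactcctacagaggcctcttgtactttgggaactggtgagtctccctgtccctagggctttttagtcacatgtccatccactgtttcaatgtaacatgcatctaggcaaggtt
ABCC4, chr13:95301402-95301701, minus strand: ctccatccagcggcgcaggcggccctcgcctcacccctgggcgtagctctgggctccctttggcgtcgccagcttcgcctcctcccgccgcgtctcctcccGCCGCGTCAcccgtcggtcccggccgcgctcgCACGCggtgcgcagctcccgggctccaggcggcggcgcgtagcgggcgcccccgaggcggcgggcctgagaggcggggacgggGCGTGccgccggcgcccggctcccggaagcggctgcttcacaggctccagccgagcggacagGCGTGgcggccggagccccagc

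The ABCC2 window was 45.0% G and C with 1 CpG, and the ABCC4 window 79.7% with 47 CpGs, against a median of 58.7% over 35116 windows of the same length. A low share was not particular to ABCC2. The windows of ABCB1 were 37.7% and 55.3% with 1 and 16 CpGs. The 5 windows of ABCG2 were 40.3% to 72.3% with 3 to 35 CpGs. The motifs, searched on both strands, were the GC box GGGCGG (in 45.0% of all windows), the TATA box TATAAA (11.5%), the antioxidant response core TGACNNNGC (13.3%), the xenobiotic response core GCGTG (36.5%), the E-box CACGTG (7.26%), the CCAAT box CCAAT (34.6%), the nuclear receptor hexamer AGGTCA (13.8%) and the C/EBP-ATF core TGATGNAA (3.62%). The ABCC2 window held 1 TATA box, which begins 236 bases before the start, and 0 matches to the other motifs. The ABCC4 window held 1 antioxidant response core and 3 xenobiotic response cores. Matches overlap nowhere in these 2 windows. A match is a description of letters, and a missing match says only that the letters are not in this window. Of the 9 genes, 7 have a window in the table, and ABCC1 and ABCC3 were not among them.

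Signals were read against a background limit, the 95th percentile on each array of 107 probe sets for olfactory receptors, genes used mainly in the olfactory epithelium. The limits were 72.9, 87.1 and 66.5 in the control and 86.4, 92.1 and 71.5 in the NS398 arrays. Of the 20 probe sets, 15 were above the limit on all 6 arrays and 2 on none. Because probe sets differ in binding strength, their signals do not give an order of transcript levels between genes.

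**Figure D1:**
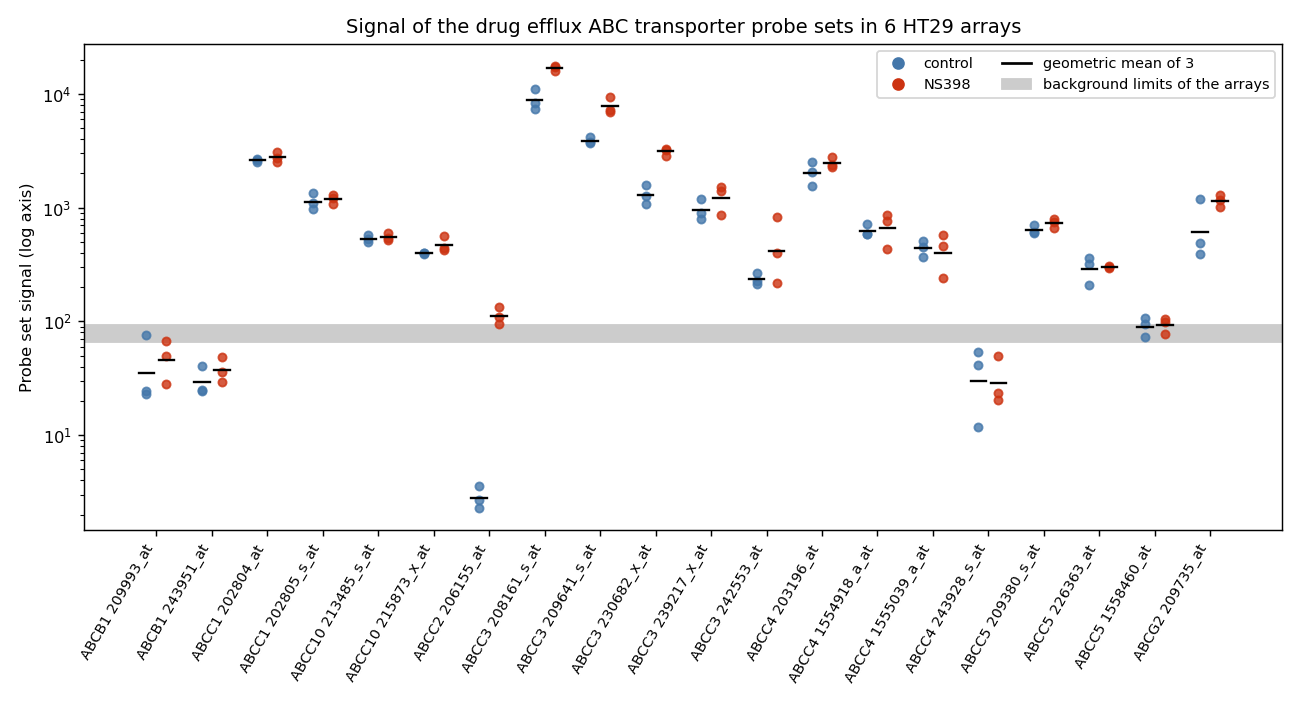
Signal of the 20 probe sets on each of the 6 arrays (points, log axis, control in blue and NS398 in red), with the geometric mean of 3 arrays (black lines) and the range of the background limits (66.5 to 92.1, grey). ABCC2 lies far below the band in control and just above it in NS398 arrays, the 3 brightest ABCC3 probe sets separate the groups, and both ABCB1 probe sets lie at or below the band.

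In the fit across all probe sets (limma with a variance trend, Benjamini-Hochberg adjusted p below 0.05), 4 of the 20 probe sets were called higher in NS398 arrays, 1 of ABCC2 and 3 of ABCC3, and 0 were called lower. Over the whole array 3.26% of probe sets were called higher and 3.17% lower. When a gene was taken at the probe set with the highest mean, 2 of 8 genes were called higher and 0 lower, where 5.23% and 4.85% of all genes were. Nothing is read from these counts, since the same contrast led to the choice of the family. The median difference, NS398 minus control on the log2 scale, was 0.34 over the 8 genes and 0.06 over all genes. It was also 0.34 with ABCC2 placed at its lower bound given below. Both medians of the 8 genes include ABCB1 at 0.38, although its signals give no measured difference. Every NS398 array lay above every control array in 5 of 20 probe sets and below it in 0, against 13.4% and 10.8% of all probe sets. By limma without the trend only the ABCC2 probe set was called higher, as were 0.0348% of all probe sets.

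**Figure D2:**
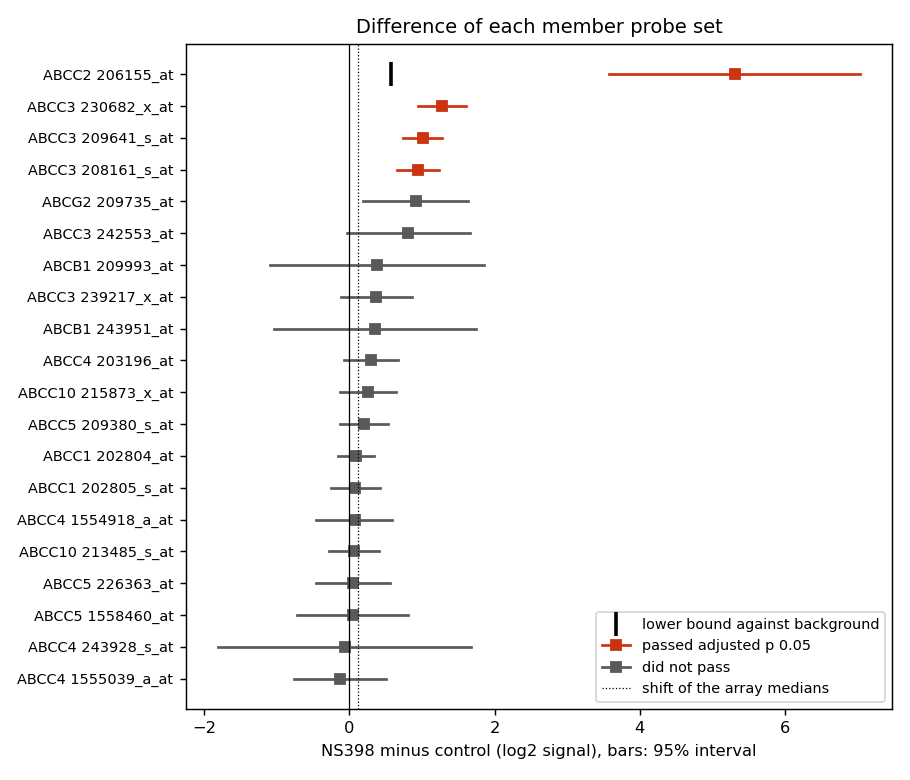
Difference of each of the 20 probe sets, NS398 minus control on the log2 signal scale (squares), with the 95% interval of the fit (bars), the 4 called probe sets in red and the shift of the array medians of 0.12 as a dotted line. The ABCC2 difference is drawn at 5.31 against unmeasured control levels, while its lower bound against background (vertical mark) is 0.57.

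Among the apical pumps, ABCC2 is the exporter that carries glutathione and glucuronide conjugates into bile and gut lumen. Its only probe set (206155_at) read 3.6, 2.3 and 2.7 in the control arrays and 95.2, 108.3 and 134.5 in the NS398 arrays. The groups were far apart, and the control values were below the median of the olfactory receptor probe sets, which was 10.4 to 14.8 on those arrays. The difference was 5.31 ± 0.79 (SE of the variance-trend fit, n = 3 and 3), with a 95% interval of 3.57 to 7.04.

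The size of this difference rests on control signals that carry no measured level. The probe set was above background on 0 of 3 control arrays and on 3 of 3 NS398 arrays. Set against the background limit in place of the control signal, ABCC2 was at least 1.49-fold higher in NS398 arrays. With the 90th percentile of the olfactory receptors as the limit the bound was at least 2.03-fold, and with the 99th percentile 0 of 3 NS398 arrays were above background, so that no fold was obtained. An offset of 32 added to every signal brought the difference to 2.04. Over the 12 alternatives that kept the probe set the difference ran from 2.04 to 5.48, and it was called in each, from which nothing is read.

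The patterns closest to that of ABCC2 were sought among 20297 probe sets of single genes whose higher group mean was above 7 on the log2 scale. A probe set could therefore enter through its NS398 arrays alone. CLGN, NIBAN1, LAMP3 and GJB6, named next, did so, with control means of 80.4, 77.6, 64.0 and 25.1, and their presence is no support for a shared pattern. Likeness was the root mean square distance between the log2 signals of the 6 arrays, each taken relative to the control mean of its probe set. The nearest was CLGN, a chaperone of the endoplasmic reticulum (distance 0.88), followed by NIBAN1 (0.90), LAMP3 (0.92), the connexin gene GJB6 (0.95) and CEACAM5 (1.00). Their NS398 minus control differences were 4.20, 4.09, 4.07, 4.42 and 4.09. These differences are not ranked against ABCC2, whose measured difference is only a lower bound. The distances rest on the ABCC2 control signals, which carry no measured level. They therefore favour probe sets with very large differences, and no likeness to ABCC2 is read from them. GJB6 was itself above background on 0 of 3 control arrays, and was at least 7.18-fold higher in the NS398 arrays.

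ABCG2, the breast cancer resistance protein, exports drugs, urate and porphyrins at the apical membrane. Its probe set (209735_at) read 1191, 390 and 486 in control and 1163, 1280 and 1015 in NS398 arrays. The groups overlapped because control replicate 1 lay within the NS398 range, and the other 2 control arrays lay well below it. The difference was 0.92 ± 0.33 (SE), with a 95% interval of 0.19 to 1.64, and was not called. It was 1.40 ± 0.16 without control replicate 1, 1.06 with array weights and 0.59 without control replicate 2. Of 13 alternatives it was called in the first 2 of these, which is given as a description. The log2 SD of the control arrays was 0.85, against 0.17 in the NS398 arrays.

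ABCB1, P-glycoprotein, is the apical pump of many natural-product drugs. Its brighter probe set (209993_at) read 24.3, 23.0 and 76.2 in control and 28.0, 67.1 and 49.9 in NS398 arrays. The second (243951_at) read 24.5, 40.4 and 25.0 in control and 35.9, 29.2 and 48.8 in NS398 arrays. The only reading above background among these 12 was the 76.2 of control replicate 3. No fold is given, and a difference was not detectable at these signals, whose 95% intervals reached from -1.10 to 1.86 and from -1.04 to 1.74. Another probe set (209994_s_at) names both ABCB1 and ABCB4, a phospholipid transporter of close sequence, and is left out of the counts. It read 115, 109 and 126 in control and 63.8, 122 and 94.1 in NS398 arrays, with overlapping groups and a difference of -0.37 ± 0.35.

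Among the basolateral pumps, ABCC3 had the brightest signals and 5 probe sets. Its brightest (208161_s_at) read 11031, 7430 and 8351 in control and 17409, 15862 and 17594 in NS398 arrays. The next (209641_s_at) read 4152, 3772 and 3698 in control and 9391, 7257 and 6944 in NS398 arrays. A further probe set (230682_x_at) read 1583, 1257 and 1083 in control and 3221, 2867 and 3299 in NS398 arrays. In each of these 3 the groups were separate, and the differences were 0.94 ± 0.13, 1.01 ± 0.12 and 1.27 ± 0.15 (SE, n = 3 and 3), which are 1.92-fold, 2.01-fold and 2.42-fold. All 3 were called, and each kept its call in 12 of 13 alternatives, the exception being limma without the trend. Relative to the array medians, after median centring, the differences were 0.82, 0.89 and 1.15.

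The remaining ABCC3 probe sets did not separate the groups. Probe set 239217_x_at read 1197, 795 and 898 in control and 1526, 1393 and 859 in NS398 arrays, where NS398 replicate 3 lay inside the control range. Probe set 242553_at read 212, 269 and 228 in control and 820, 216 and 399 in NS398 arrays, where NS398 replicate 2 lay inside it. Their differences were 0.37 ± 0.22 and 0.81 ± 0.38, with 95% intervals of -0.12 to 0.86 and -0.03 to 1.66. The second moved to 0.32 without NS398 replicate 1 and to 1.28 without NS398 replicate 2, and was not called in any of 13 alternatives. All 5 probe sets were above background on all arrays, and whether they read the same transcripts of ABCC3 was not tested. In Affymetrix names the ending x_at marks probes that can also bind other transcripts.

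ABCC1, the founding multidrug resistance protein, was bright and close to equal in the groups. Its brighter probe set (202804_at) read 2706, 2606 and 2506 in control and 2538, 2731 and 3085 in NS398 arrays. The other (202805_s_at) read 1355, 974 and 1099 in control and 1081, 1229 and 1298 in NS398 arrays. The groups overlapped in both, with differences of 0.09 ± 0.11 and 0.08 ± 0.15. The 95% intervals, -0.16 to 0.34 and -0.25 to 0.42, bound the size of any change in each. After median centring both differences turned to below 0, at -0.03 and -0.04.

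ABCC4, an exporter of cyclic nucleotides and prostaglandins, was read by 4 probe sets with no call. The brightest (203196_at) read 2537, 1547 and 2061 in control and 2360, 2810 and 2257 in NS398 arrays, with overlapping groups and a difference of 0.30 ± 0.17 (95% interval -0.08 to 0.67). In 1554918_a_at the control arrays read 725, 582 and 585 and the NS398 arrays 861, 760 and 433. In 1555039_a_at they read 509, 450 and 368 and 572, 461 and 242. In both, NS398 replicate 3 was the lowest of the 6 arrays. The differences of 0.07 ± 0.24 and -0.13 ± 0.29 changed sign in 3 and 1 of 13 alternatives, the first to -0.06 after median centring. The last (243928_s_at), between 11.9 and 53.7, was above background on 0 arrays and carries no measured level.

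ABCC5, an exporter of cyclic nucleotides, was read by 3 probe sets with no call. The brightest (209380_s_at) read 609, 710 and 605 in control and 659, 753 and 799 in NS398 arrays, with overlapping groups and a difference of 0.20 ± 0.15 (95% interval -0.13 to 0.53). Probe set 226363_at ran from 209 to 358 in control and from 296 to 304 in NS398 arrays, and 1558460_at, near background, ran from 72.2 to 106 and from 76.7 to 105. Their differences of 0.05 ± 0.23 and 0.05 ± 0.35 changed sign after median centring and in others of the alternatives.

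ABCC10 (MRP7), a pump of taxanes and other lipophilic drugs, was read by 2 probe sets with no call. The brighter (213485_s_at) read 495, 574 and 530 in control and 541, 523 and 602 in NS398 arrays, a difference of 0.06 ± 0.16 that fell to -0.06 after median centring. The other (215873_x_at) read 398, 403 and 388 in control and 423, 446 and 564 in NS398 arrays. In the latter every NS398 array was above every control array, but the difference of 0.26 ± 0.18 (95% interval -0.13 to 0.64) was not called.

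Among the 6 genes with a measured level in both groups, the differences of the brightest probe sets ran from ABCC3 (0.94) and ABCG2 (0.92) through ABCC4 (0.30) and ABCC5 (0.20) to ABCC1 (0.09) and ABCC10 (0.06). The 95% intervals of neighbours in this order overlapped. ABCC2, with a lower bound of 0.57, and ABCB1, with no measured difference, have no place in it. Differences between members were not tested.

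The order of the control arrays differed between members and was not tested. Of the 15 probe sets above background on all 6 arrays, control replicate 1 was the highest control array in 10, replicate 2 in 5, which belong to ABCC3, ABCC5 and ABCC10, and replicate 3 in 0. Over all 22519 probe sets above background on all arrays these shares were 35.4%, 36.7% and 27.9%. In 8 of the 15, NS398 replicate 3 was the highest NS398 array, against 35.7% of all. Several of the probe sets read 1 gene and are not independent.

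**Figure D3:**
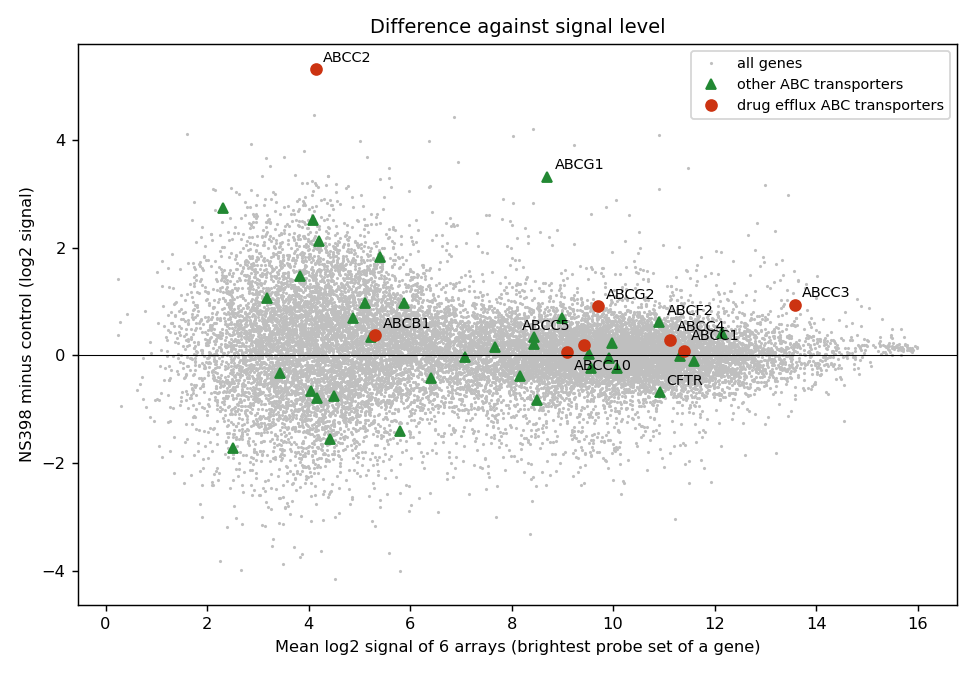
Difference (NS398 minus control, log2) against the mean log2 signal of the 6 arrays for all 19775 genes (grey), 36 other ABC transporters (green triangles) and 8 drug efflux ABC transporters (red circles), each from its brightest probe set. Differences scatter more widely at low signal, where ABCC2 (5.31) and ABCB1 (0.38) lie, and ABCC3 (0.94) and ABCG1 (3.32) lie at measurable signals.

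The rest of the ABC family was compared as a list of 39 genes, of which 36 were measured. In the same fit 2 rose and 1 fell, beside 5.23% and 4.85% of all genes, and the median difference was 0.09. ABCG1, a sterol exporter, rose from 132 to 1318 (3.32 ± 0.27, SE, limma adjusted p = 5.39e-05), and all 4 of its probe sets were called higher. ABCF2, a family member without membrane spans, differed by 0.61 ± 0.13 (adjusted p = 0.0147). The chloride channel gene CFTR differed by -0.68 ± 0.16 (adjusted p = 0.0296). ABCG1 lost its call only without the variance trend. ABCF2 also lost its call after median centring (0.49, adjusted p = 0.145). The same held without control replicate 2 (adjusted p = 0.0527), control replicate 3 (0.0608), NS398 replicate 2 (0.0619) or NS398 replicate 3 (0.0639). CFTR lost its call without control replicate 1 (0.0603), control replicate 3 (0.0873) or NS398 replicate 1, 2 or 3 (0.127, 0.0619, 0.0611). It also lost the call with the replicate number as a block (0.0727). In the centred arrays 1 gene was called higher and 1 lower.

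Drug and bile acid uptake carriers bring substrates to these pumps, although the list used for them also holds the efflux carriers SLC47A1, SLC47A2, SLC51A and SLC51B. Of 31 measured, 2 rose and 0 fell, beside 5.23% and 4.85% of all genes, with a median of 0.24. SLCO1B3, the organic anion carrier OATP1B3, rose from 393 to 2915 (2.89 ± 0.35, adjusted p = 0.000725), and like ABCG2 had its highest control reading in replicate 1 (761, 214 and 371). SLC22A4, a carrier of ergothioneine, differed by 1.46 ± 0.36 (adjusted p = 0.0353). It lost its call without control replicate 2 (0.0835), control replicate 3 (0.0678), NS398 replicate 1 (0.161) or NS398 replicate 2 (0.153). The call was also lost with quantile normalisation (0.0507) and with the replicate number as a block (0.0666). After median centring it was lost as well (1.34, adjusted p = 0.0577), and 1 gene of the list remained called.

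Conjugation and glutathione enzymes make many of the substrates of ABCC2 and ABCC3. Of 42 measured, 8 rose and 3 fell, beside 5.23% and 4.85% of all genes, with a median of 0.24. GCLC and GCLM, the catalytic and modifier subunits of glutamate-cysteine ligase, rose from 3357 to 8572 (1.35 ± 0.11, adjusted p = 5.22e-05) and from 1600 to 4798 (1.58 ± 0.15, adjusted p = 0.000139). UGDH, which makes UDP-glucuronic acid, rose from 4239 to 8408 (0.99 ± 0.14, adjusted p = 0.00144). GSTM2, a glutathione transferase whose x_at probes can bind close relatives, rose from 183 to 404 (1.14 ± 0.20, adjusted p = 0.00581). These 4 kept their calls in all alternatives with the variance trend, while the list in the centred arrays had 4 higher and 5 lower. Its counts were 4 to 7 higher and 1 to 5 lower without single arrays.

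Of 25 measured xenobiotic sensors and transporter regulators, 6 rose and 1 fell, beside 5.23% and 4.85% of all genes, with a median of 0.26. The stress factors ATF4 and CEBPB rose from 20040 to 41190 (1.04 ± 0.08, adjusted p = 3.06e-05) and from 8975 to 22430 (1.32 ± 0.10, adjusted p = 4.14e-05). NR1H3, the sterol sensor LXR-alpha, rose from 1911 to 3715 (0.96 ± 0.16, adjusted p = 0.00515). PPARA differed by 0.75 ± 0.15 (adjusted p = 0.0118) and was not called when NS398 replicate 1 (0.0585) or NS398 replicate 3 (0.0515) was left out or after median centring (0.0715), where the list had 3 higher and 1 lower.

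Of 11 measured scaffold and trafficking proteins, which hold transporters at the membrane, 1 rose and 1 fell, with a median of 0.00. Of all genes 5.23% rose and 4.85% fell. CAV1 (caveolin 1) differed by -0.85 ± 0.17 (adjusted p = 0.0106), a call that did not hold when control replicate 3 (0.0666) or NS398 replicate 1 (0.0543) was left out. The motor gene MYO5B differed by 0.52 ± 0.11 (adjusted p = 0.0136). This call did not hold when control replicate 3 (0.0648) or NS398 replicate 2 (0.0862) was left out. It also failed after median centring (0.199) and with the replicate number as a block (0.0533).

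**Figure D4:**
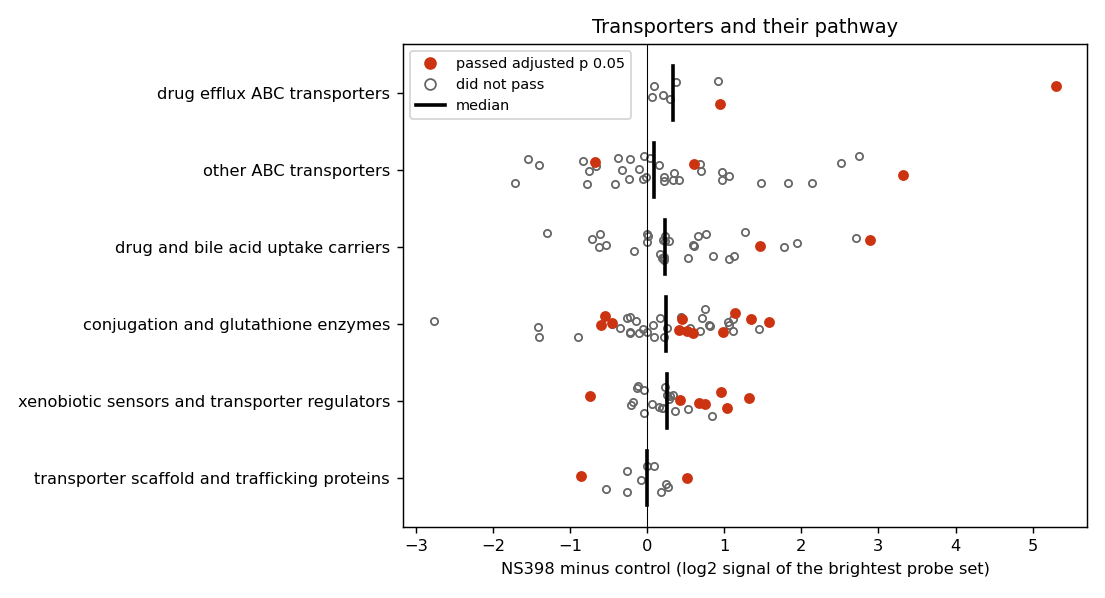
Difference (NS398 minus control, log2) of each measured gene in 6 lists, from its brightest probe set, with calls in red, other genes as open circles and list medians as black bars (vertical jitter has no meaning). ABCC2 is drawn at 5.31 against unmeasured control levels. Its lower bound of 0.57 gives it no rank against ABCG1 (3.32), SLCO1B3 (2.89) or GCLM (1.58). The medians lie between 0.00 and 0.34.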

How the data were processed

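The deposited values are linear intensity values, 1 signal per probe set and array, which the authors scaled to a common trimmed mean. They are not the quantile-normalised gcRMA values of the study's methods, have the scale of MAS 5.0 signals and come without detection calls. The submitters' notes name the affy package. Signals were log2-transformed without offset.

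Probe sets were named from the platform annotation, with symbols matched to RefSeq by Entrez number. Every probe set was tested by limma 3.58.1 (R 4.3.3) with variance trend and robust estimation, treatment as the only term, and Benjamini-Hochberg adjustment over 54675 probe sets. The study used SAM, which was not run. A gene was read from the probe set with the highest mean. Named genes were all members, up to 4 called genes with the smallest adjusted p per list, and the 5 nearest patterns to ABCC2. The members and lists were chosen with earlier results of these data known. The fit was tested on 3 and 3 simulated arrays with the level and spread of the real ones. Of 50 planted changes of each size on the log2 scale, it recovered 0 at 0.585 and 5 at 1.0. It recovered 13 at 2.0 and 17 at 3.0, with 0 false calls. Among planted probe sets with a control mean above 7, it recovered 0 of 21, 5 of 20, 12 of 18 and 16 of 20. A missing call is therefore not a sign of no change. Fewer changes were planted than were called in the real arrays, which makes the adjusted threshold stricter. The recovered shares are therefore not an estimate for the real fit. P-values rest on the spread between 3 and 3 arrays, moderated towards the spread of probe sets of like signal level. The number of arrays limits precision. Figures used matplotlib 3.10.9 (Python 3.11.15). Alternatives were limma without trend, median centring, quantile normalisation, an offset of 32, a mean log2 signal above 7, array weights, the replicate number as a block, the mean of a gene's probe sets, leaving out each array, and other background limits.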

Additional observations from a re-analysis of the deposited data

How the results depend on the processing

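The count of member probe sets called higher, 4, was 1 with limma without the variance trend, and 4 to 5 without single arrays, where 0 were called lower. The count of member genes, 2, was 1 without the trend and 1 with a mean log2 signal above 7, which removes ABCC2, and 2 to 3 without single arrays. The 15 probe sets above background changed by less than 1.5 times with other limits. No called member changed direction.

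For the other lists the counts were 0 without the trend, where 24 of 54675 probe sets were called against 3513. Median centring gave 1 other ABC transporter higher, 1 uptake carrier higher, 4 conjugation enzymes higher and 5 lower, 3 regulators higher and 0 scaffold proteins higher, with 864 probe sets higher and 1943 lower over the array. Quantile normalisation gave 1 uptake carrier higher and 2 scaffold proteins lower, with 1837 probe sets higher and 1862 lower over the array. A mean log2 signal above 7 gave 4 other ABC transporters and 1 uptake carrier higher. In that setting 2375 of 22399 probe sets were called higher, against 1782 of 54675 in the main fit, and nothing is read from these counts. The mean of a gene's probe sets gave 1 other ABC transporter higher and 0 lower, 1 conjugation enzyme lower, 0 regulators lower, and 0 scaffold proteins higher and 2 lower. Of all 19775 genes, 732 were higher and 732 lower by that mean. Without single arrays the counts were 1 to 2 other ABC transporters higher and 0 to 1 lower, 1 to 2 uptake carriers higher, 4 to 7 conjugation enzymes higher and 1 to 5 lower, 4 to 6 regulators higher and 0 to 1 lower, and 0 to 1 scaffold proteins in either direction. Leaving out NS398 replicate 1, 2 or 3 gave 1826, 1896 or 2340 calls over the whole array, and leaving out control replicate 3 gave 1876. The cause of these changes was not tested.

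The labels do not say whether the replicate numbers pair the samples. Same-numbered arrays had correlations of deviations of -0.14, -0.06 and -0.10 over probe sets above 7, which gave no sign of pairing. With 3 arrays per group, deviations from the group mean cannot show whether same-numbered cultures were handled together. With the replicate number as a block 4 member probe sets and 2 member genes were called higher and 0 lower, and 2462 probe sets in all. The block gave 0 other ABC transporters lower, 1 uptake carrier higher, 4 conjugation enzymes higher, 0 regulators lower and 0 scaffold proteins higher. Dim signals limit ABCB1 and ABCC2.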
